A study of Fragaria x ananassa with 21 samples.

Results

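Phytoene synthase (PSY) was represented in the strawberry receptacle transcriptome by 7 unigenes, the assembled transcript contigs, out of 109953 in all. They are every unigene of 2 Trinity components, the assembler's groups of overlapping contigs: 3 of comp109519, among them comp109519_c0_seq12, and 4 of comp110189, among them comp110189_c0_seq5. The members were taken by component and not by their levels. The study's gene list gives all 7 the phytoene synthase protein of Fragaria x ananassa as best match and a PSY domain, with weaker matches for comp110189_c0_seq9 and comp110189_c0_seq11. The same list names 2 further unigenes PSY, comp66201_c0_seq1 and comp141666_c0_seq1, which are described apart.

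Fruits of the octaploid cultivar Toyonoka were injected through the pedicel with 100 μL of water (CK), of abscisic acid (ABA) at 1 μM or of nordihydroguaiaretic acid (NDGA), a blocker of ABA biosynthesis, at 100 μM. Receptacles, the fleshy part without the achenes, gave the libraries CK0, taken on day 0 and labelled as water-treated, CK5, ABA5 and NDGA5 on day 5, and CK8, ABA8 and NDGA8 on day 8. ABA-treated fruit had reached the initial red stage on day 5 and water-treated fruit on day 8. RNA of single fruits was pooled into 1 library per condition, so no value has a replicate and no difference between conditions was tested.

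PSY joins a pair of geranylgeranyl diphosphate (GGPP) molecules into phytoene, the first colourless carotenoid, and is widely regarded as the entry step of carotenoid biosynthesis. Desaturases and isomerases turn phytoene into lycopene, cyclases turn lycopene into carotenes, and epoxidation of the xanthophylls made from them yields the precursors of ABA. GGPP is also the substrate of geranylgeranyl reductase (GGR), which makes the phytyl chains of chlorophyll and tocopherols. In ripening tomato, PSY is known to limit carotenoid synthesis, and the step lies upstream of the hormone that was injected or blocked here.

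The only stretch of a member's sequence read here is the end of comp109519_c0_seq12 that the study's primer table lists, and it is shown to tie the contig to an open reading frame. The listed strand runs against the coding strand: the longest open frame, on the reverse complement of the 399 listed bases, held 64 codons before its stop, and 203 bases followed that stop. The coding strand is given 5′ to 3′ with the stop codon in capitals. The primers of the study's qRT-PCR assay for this unigene are given in capitals, and neither lay within the listed bases. No genome of the assembly was used, so none of these is placed on a chromosome.
comp109519_c0_seq12, end of the open frame: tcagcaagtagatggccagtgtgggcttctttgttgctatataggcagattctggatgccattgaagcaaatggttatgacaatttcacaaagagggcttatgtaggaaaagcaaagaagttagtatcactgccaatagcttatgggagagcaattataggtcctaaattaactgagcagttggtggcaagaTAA
comp109519_c0_seq12, forward primer: TGCCACTTGTCTGTCACTTTCC
comp109519_c0_seq12, reverse primer: GCCCTTGGAATCGCTAATCA

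Levels are RPKM, in which the reads of a unigene are scaled by its length and by the size of the library. The libraries were scaled to 53653395 reads in NDGA8 to 89152239 in ABA8, and RPKM times length came to whole reads, so each level is given with the exact 95% interval of its reads. These intervals hold counting error and leave out the variation among fruits, and the total level of a bulk tissue cannot tell fewer cells of a type from less RNA per cell.

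PSY was lowest in CK0 and highest in ABA5, and each of the 7 unigenes had these libraries at its ends. The best expressed member, comp110189_c0_seq5 (1833 nt), stood at 20.5 RPKM in CK0, 49.0 and 57.4 in CK5 and CK8, 78.1 and 46.8 in ABA5 and ABA8, and 24.1 and 28.1 in NDGA5 and NDGA8. Its interval was 19.7 to 21.4 RPKM in CK0 and 76.5 to 79.8 RPKM in ABA5, from 2172 and 8705 reads. The NDGA libraries thus lay close to day 0, and the water and ABA libraries lay above both.

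The unigene of the qRT-PCR assay, comp109519_c0_seq12 (2226 nt), had 16.4 RPKM in CK0, 37.9 and 46.3 in CK5 and CK8, 61.2 and 37.0 in ABA5 and ABA8, and 19.5 and 22.7 in NDGA5 and NDGA8. Its sister contig comp109519_c0_seq8 (2126 nt) had 17.2 RPKM in CK0, 39.8 and 49.2 in CK5 and CK8, 64.7 and 39.1 in ABA5 and ABA8, and 20.7 and 23.7 in NDGA5 and NDGA8. The third contig of the component, comp109519_c0_seq6 (1697 nt), had 12.8 RPKM in CK0, 29.6 and 40.8 in CK5 and CK8, 52.5 and 31.9 in ABA5 and ABA8, and 16.8 and 18.8 in NDGA5 and NDGA8. It was the least abundant contig of comp109519 in every library and the only one of the 7 with ABA8 above CK5.

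In comp110189, comp110189_c0_seq10 (2161 nt) had 16.1 RPKM in CK0, 39.5 and 45.8 in CK5 and CK8, 62.6 and 37.2 in ABA5 and ABA8, and 19.9 and 23.3 in NDGA5 and NDGA8. The shortest member, comp110189_c0_seq11 (731 nt), had 14.9 RPKM in CK0, 39.7 and 43.9 in CK5 and CK8, 59.5 and 31.7 in ABA5 and ABA8, and 17.8 and 21.7 in NDGA5 and NDGA8. The lowest member, comp110189_c0_seq9 (1288 nt), had 10.8 RPKM in CK0, 27.0 and 27.7 in CK5 and CK8, 38.7 and 24.3 in ABA5 and ABA8, and 12.4 and 15.8 in NDGA5 and NDGA8. These contigs, too, rose and fell with the libraries in nearly the same proportions.

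**Figure D1:**
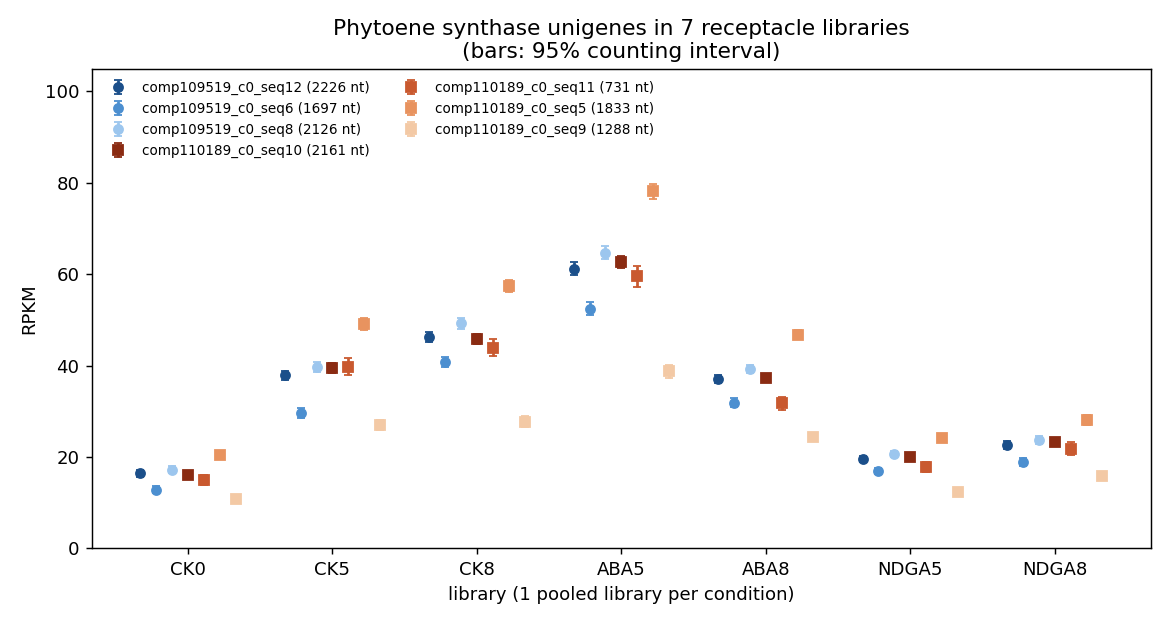
RPKM (y axis) of the 7 phytoene synthase unigenes in the 7 libraries (x axis), circles for comp109519 and squares for comp110189, with the exact 95% counting interval as bars. All 7 are highest in ABA5, where they span 38.7 to 78.1 RPKM, and lowest in CK0, where they span 10.8 to 20.5 RPKM.

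By mean RPKM over the libraries, each member stood above at least 95.3% of the unigenes that had reads, and comp110189_c0_seq5 above 97.7%. Summed over the 7 unigenes, PSY amounted to 108.7 RPKM in CK0, 262 and 311 in CK5 and CK8, 417 and 248 in ABA5 and ABA8, and 131 and 154 in NDGA5 and NDGA8, a 3.84-fold range. The sums place the libraries in the order ABA5, CK8, CK5, ABA8, NDGA8, NDGA5 and CK0. The contigs overlap, so a sum is a scale of this assembly and not a number of transcripts.

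Most neighbours in this order were apart by more than counting error. An exception was the pair of CK5 and ABA8. Their ratio was 1.02 in comp109519_c0_seq12 (0.987 to 1.06) and 1.02 in comp109519_c0_seq8 (0.980 to 1.05), both intervals including 1, but 1.05 in comp110189_c0_seq5 (1.01 to 1.09) and 1.25 in comp110189_c0_seq11 (1.17 to 1.33). In comp110189_c0_seq9, CK8 and CK5 also could not be separated, with a ratio of 1.03 (0.969 to 1.09). NDGA5 was above CK0 by 1.18-fold in comp110189_c0_seq5 (1.12 to 1.24), and its interval lay above 1 in all 7 members.

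The members were not independent measurements. The 4 contigs longer than 1800 nt, which are divided evenly between the components, carried nearly the same number of reads in every library: from 2015 to 2172 in CK0, from 8224 to 8705 in ABA5 and from 2703 to 2764 in NDGA8. The highest of the 4 exceeded the lowest by 2.26% (NDGA8) to 7.79% (CK0). Reads shared between contigs were not resolved, and allelic or homoeologous copies of this octaploid, splice forms and assembly variants cannot be told apart. Agreement among the 7 is therefore not support from 7 genes.

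Within a component, the contigs kept almost constant shares of the summed RPKM. In comp109519, comp109519_c0_seq8 took 36.1 to 37.1% and comp109519_c0_seq12 took 34.0 to 35.3%. The share of comp109519_c0_seq6 was 27.6% in both CK0 and CK5 and 28.8 to 29.9% in the other libraries. In comp110189, comp110189_c0_seq5 took 31.6 to 33.4%, comp110189_c0_seq10 took 25.4 to 26.9%, comp110189_c0_seq11 took 22.6 to 25.6% and comp110189_c0_seq9 took 15.9 to 17.8%. The sum of comp109519 over that of comp110189 stayed between 0.691 in CK5 and 0.780 in CK8. Pearson's r of log2(RPKM + 0.1) over the 7 libraries was 0.98 to 1.00 in the 21 pairs of members, a description of contigs that share libraries and may share reads.

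Calls follow a size rule: a unigene counts as higher or lower with a ratio of RPKM + 0.1 of at least 1.5-fold, with 1 RPKM or more in 1 of the 2 libraries. With ABA on day 5, PSY was higher than in water-treated fruit: 5 of the 7 members were called higher in ABA5 than in CK5, against a background of 15.1% of all unigenes tested. The fold was 1.59 in comp110189_c0_seq5 (95% counting interval 1.54 to 1.65), 1.62 in comp109519_c0_seq12 (1.56 to 1.67) and 1.77 in comp109519_c0_seq6. Just outside the rule were comp110189_c0_seq11, a little under 1.5-fold, and comp110189_c0_seq9 at 1.43-fold. The median log2 ratio of the members was 0.67 and that of all unigenes tested was −0.06. ABA5 was at the initial red stage and CK5 was not, so agent and stage cannot be told apart in this comparison.

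On day 8 the order of ABA and water was the other way round. All 7 members were lower in ABA8 than in CK8, by log2 ratios of −0.19 to −0.47, and 0 were called, with 36.1% of all unigenes called lower in that comparison. In comp110189_c0_seq5, CK8 was 1.23-fold above ABA8 (1.19 to 1.27). The median of all unigenes tested was itself at −0.28, close to the −0.32 of the members. When each library was rescaled by the median log2 ratio of its unigenes to CK0, which moved ABA8 against CK8 by 0.22, the members' log2 ratios became −0.25 to 0.03, and comp110189_c0_seq9 changed sign. PSY in ABA8 was thus about as far below CK8 as the typical unigene. Water-treated fruit reached initial red on day 8, later than ABA-treated fruit, so agent and stage cannot be told apart here either.

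NDGA, which blocks ABA biosynthesis, went with lower PSY on both days. All 7 members were called lower in NDGA5 than in CK5, where the background was 11.8%, and CK5 was 2.03-fold above NDGA5 in comp110189_c0_seq5 (1.95 to 2.12) and 1.93-fold in comp109519_c0_seq12 (1.86 to 2.03). All 7 were also called lower in NDGA8 than in CK8, where the background was 15.3%, with CK8 2.04-fold above NDGA8 in comp110189_c0_seq5 (1.95 to 2.13). The members' log2 ratios spanned −0.81 to −1.16 on day 5 and −0.81 to −1.11 on day 8, against medians of 0.01 and 0.11 over all unigenes tested. The paper describes fruit development as inhibited by NDGA, so agent and stage cannot be told apart on either day.

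The contrast between the agents was widest on day 5. All 7 members were called higher in ABA5 than in NDGA5 (background 17.8%), by 3.23-fold in comp110189_c0_seq5 (3.11 to 3.37). On day 8, 6 of 7 were called higher in ABA8 than in NDGA8 (background 15.3%), by 1.66-fold in comp110189_c0_seq5 (1.59 to 1.74), and the member left out was comp110189_c0_seq11 at 1.46-fold. Rescaling raised the summed ratio on day 8 from a log2 of 0.69 to 1.03, since the median unigene was 0.35 lower in ABA8 than in NDGA8 on the log2 scale. These comparisons share libraries with those against water, so they are not separate evidence. In the paper ABA advanced ripening and NDGA held it back, so here too agent and stage cannot be told apart.

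During ripening without an added agent, PSY rose mainly before day 5. All 7 members were called higher in CK5 than in CK0 (background 17.1%), by 2.38-fold in comp110189_c0_seq5 (2.27 to 2.51) and 2.65-fold in comp110189_c0_seq11. Between CK5 and CK8, 0 of 7 were called higher (background 22.3%), and the ratios ran from 1.03-fold in comp110189_c0_seq9 to 1.37-fold in comp109519_c0_seq6. Over the whole span, all 7 were called higher in CK8 than in CK0 (background 20.2%), by 2.79-fold in comp110189_c0_seq5 (2.67 to 2.94) and 3.16-fold in comp109519_c0_seq6.

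After ABA, the level fell between the days, whereas after NDGA it hardly moved. All 7 members were called lower in ABA8 than in ABA5 (background 26.7%), and ABA5 was 1.67-fold above ABA8 in comp110189_c0_seq5 (1.62 to 1.72) and 1.87-fold in comp110189_c0_seq11. With rescaling only comp110189_c0_seq11 was still called, and the rescaled share of all unigenes is not given for this comparison. In the NDGA libraries 0 of 7 were called higher on day 8 (background 17.1%), with 1.16-fold in comp110189_c0_seq5 (1.11 to 1.22).

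At a matched colour stage, ABA5 and CK8, both at initial red, gave a smaller ratio than ABA5 and CK5. None of the members was called, 0 of 7 (background 20%), and ABA5 was above CK8 by 1.29-fold in comp109519_c0_seq6 to 1.39-fold in comp110189_c0_seq9, with an interval of 1.32 to 1.41 around 1.36 in comp110189_c0_seq5. This comparison matches the stage but sets a day 5 library against a day 8 library, so day and agent cannot be told apart.

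**Figure D2:**
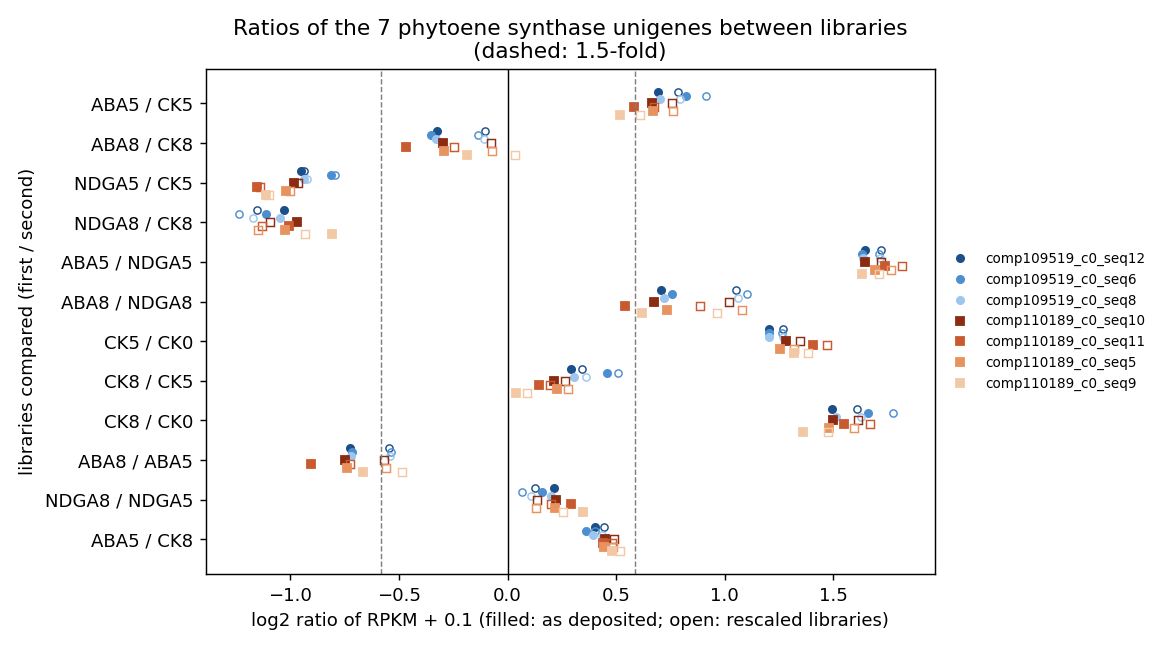
Log2 ratio of RPKM + 0.1 (x axis) of the 7 members in the 12 comparisons (y axis, first over second library), filled as deposited and open after rescaling, with dashed lines at 1.5-fold. All points of NDGA over water lie left of −0.58 and all points of CK5 and CK8 over CK0 lie right of 0.58, while ABA8 over CK8 spans −0.47 to −0.19 as deposited and −0.25 to 0.03 rescaled.

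The other enzymes of the carotenoid list did not follow PSY as a group. The list was drawn by the authors from these libraries and holds 73 unigenes of 22 enzymes besides PSY, from the precursor pathways (MVA in the cytosol, MEP in the plastid) to the xanthophylls. In ABA5 against CK5, 2 of the 49 measured were called higher and 4 lower, where 15.1% of all unigenes were called higher and 13% lower. After rescaling it was 3 and 3, with 18.2% and 10.6% of all. In ABA8 against CK8, 3 of 53 were called higher and 26 lower, where 18.7% of all unigenes were called higher and 36.1% lower. After rescaling it was 5 and 17, with 25.6% and 28.2% of all. In NDGA5 against CK5, 8 of 53 were called higher and 4 lower (14.8% and 11.8% of all). In NDGA8 against CK8, 12 of 54 were called higher and 3 lower (20.7% and 15.3% of all). The list's median log2 ratios were −0.16, −0.55, −0.00 and 0.21 in this order, beside −0.06, −0.28, 0.01 and 0.11 over all unigenes tested.

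Before PSY, the best expressed unigenes of the MVA pathway, of IPI and of GGPS had their lowest level in an ABA library. HMG-CoA synthase (HMGCS, comp112067_c0_seq2) had 13.7 RPKM in CK0, 8.37 and 7.74 in CK5 and CK8, 5.31 and 5.99 in ABA5 and ABA8, and 13.3 and 11.4 in NDGA5 and NDGA8, nearly the mirror image of PSY, with r = −0.93 to its sum over the 7 libraries. GGPP synthase (GGPS, comp111696_c0_seq3), which makes the substrate of PSY, had 10.98 RPKM in CK0, 9.51 and 7.71 in CK5 and CK8, 6.78 and 3.25 in ABA5 and ABA8, and 8.41 and 10.7 in NDGA5 and NDGA8. It was called lower in ABA8 than in CK8, with CK8 2.33-fold above (2.14 to 2.63). Isopentenyl diphosphate isomerase (IPI, comp106476_c0_seq1) varied little, from 22.1 RPKM in ABA8 to 34.7 RPKM in NDGA8.

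Apart from DXS and FPPS, the best expressed unigenes of the remaining precursor enzymes were lowest in ABA8, where the median unigene stood at a log2 ratio of −0.34 to CK0. The best expressed unigenes ran from 49.3 RPKM in ABA8 to 82.6 RPKM in NDGA8 for the thiolase ACAT (comp103345_c1_seq2), from 4.00 in ABA8 to 14.1 in CK0 for mevalonate kinase (MVK, comp108317_c1_seq2) and from 5.07 in ABA8 to 14.0 in CK5 for phosphomevalonate kinase (PMVK, comp109215_c0_seq2). In the MEP pathway the ranges were 0.58 (NDGA5) to 4.96 RPKM (ABA5) for DXS (comp110087_c0_seq1, a contig of 219 nt), 4.10 (ABA8) to 7.89 (NDGA8) for DXR (comp105975_c0_seq17), 1.87 (ABA8) to 7.10 (CK0) for CMS (comp100207_c0_seq1), 9.82 (ABA8) to 18.9 (CK0) for CMK (comp100007_c0_seq2) and 5.20 (ABA8) to 13.9 (NDGA5) for MCS (comp107609_c0_seq2). The choice of the DXS contig rests on a near tie: the longer comp111998_c1_seq2 (2438 nt) had almost the same mean (both 3.53 RPKM) and ran from 2.15 RPKM in ABA8 to 4.97 RPKM in NDGA5. For the DXR contig, ABA8 could not be separated from CK8 (4.16 RPKM), with an interval of 0.802 to 1.21 for their ratio. Other DXR unigenes were divided, with comp105975_c0_seq10 lowest in CK8 (1.88 RPKM) and comp104668_c0_seq5 lowest in ABA8 (2.27 RPKM). So were those of CMS, with comp100471_c0_seq9 lowest in CK8 (1.90 RPKM) and comp107177_c0_seq4 lowest in ABA8 (1.73 RPKM). The one farnesyl diphosphate synthase unigene (FPPS, comp141123_c0_seq1) reached only 0.22 RPKM.

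Directly after PSY, the best expressed phytoene desaturase unigene was higher in CK5 than in CK0, as PSY was, but was not higher with ABA than with water. PDS (comp110404_c0_seq12) had 11.5 RPKM in CK0, 20.4 and 17.6 in CK5 and CK8, 17.4 and 15.8 in ABA5 and ABA8, and 14.0 and 19.3 in NDGA5 and NDGA8. It was called higher in CK5 than in CK0, by 1.76-fold (1.66 to 1.88), and CK5 was 1.17-fold above ABA5 (1.11 to 1.24), the direction opposite to PSY. The scarce PDS unigenes of comp98283 and comp99208 were all lower in CK5 than in CK0, among them comp99208_c0_seq2 with 0.718 against 1.06 RPKM. The isomerase Z-ISO (comp106288_c0_seq1) stayed between 5.88 and 7.99 RPKM and the isomerase CRTISO (comp117652_c0_seq33) between 2.44 and 3.51 RPKM. Another CRTISO contig of similar mean level, comp104685_c0_seq16 (2482 nt), ranged more widely, from 1.19 RPKM in ABA8 to 3.43 RPKM in NDGA8. Zeta-carotene desaturase (ZDS, comp117631_c0_seq4) had 13.9 RPKM in CK0, 22.8 and 15.0 in CK5 and CK8, 18.1 and 7.61 in ABA5 and ABA8, and 21.3 and 17.1 in NDGA5 and NDGA8, and CK8 was 1.95-fold above ABA8 (1.86 to 2.08).

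Farther along, zeaxanthin epoxidase (ZEP, comp108626_c0_seq2), which makes the epoxycarotenoids that precede ABA, had the course most like PSY of the 25 list unigenes with a mean of at least 5 RPKM, with r = 0.78. It had 8.13 RPKM in CK0, 12.8 and 8.81 in CK5 and CK8, 13.4 and 12.1 in ABA5 and ABA8, and 7.75 and 8.30 in NDGA5 and NDGA8. Like PSY it was called lower in NDGA5 than in CK5, with CK5 1.64-fold above (1.54 to 1.76). ABA5 was only 1.05-fold above CK5 (0.986 to 1.12), an interval that includes 1. The next in likeness was PDS, with r = 0.63.

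Lycopene beta-cyclase (LCYB, comp105524_c0_seq4) ranged from 6.39 RPKM in ABA8 to 10.9 in CK0. The epsilon branch was low throughout, from 0.30 RPKM in ABA8 to 2.08 in CK0 for its cyclase (LCYE, comp105236_c0_seq1) and from 0.68 in ABA8 to 1.48 in CK0 for its hydroxylase (CHYE, comp102493_c1_seq2). Violaxanthin de-epoxidase (VDE, comp101834_c0_seq10), which reverses the ZEP step, had 8.94 RPKM in CK0, 0.28 and 10.4 in CK5 and CK8, 0.41 and 0.05 in ABA5 and ABA8, and 3.01 and 3.82 in NDGA5 and NDGA8. PSY was high in each of the 3 libraries where this unigene was below 1 RPKM, but also in CK8, where it was highest.

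**Figure D3:**
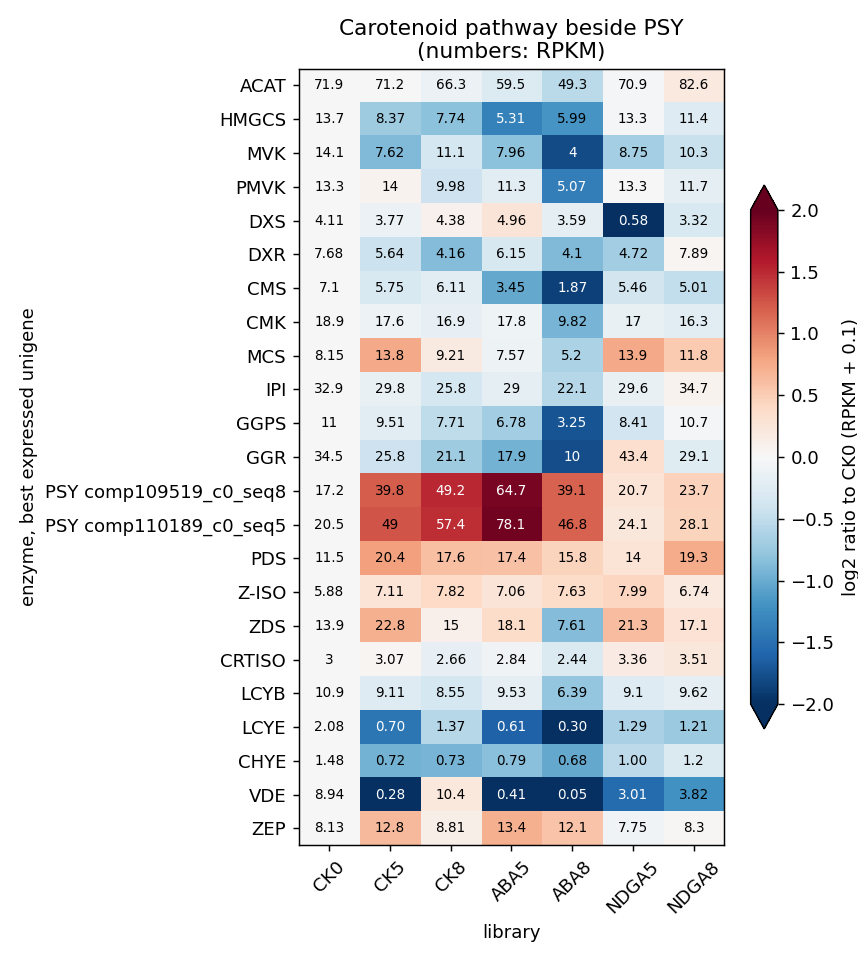
RPKM (numbers) and log2 ratio to CK0 (colour) of the best expressed unigene of 21 enzymes of the carotenoid list and of each PSY component (rows, in pathway order) in the 7 libraries (columns). The PSY rows peak in ABA5 at 64.7 and 78.1 RPKM, where GGPS and GGR directly above them stand at 6.78 and 17.9 RPKM, below their 10.98 and 34.5 RPKM in CK0.

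GGR, which draws on the same substrate as PSY, was lowest in ABA8, and its best expressed unigene was highest in NDGA5. Over the 7 libraries the 3 GGR unigenes had r = −0.67, −0.75 and −0.74 to the PSY sum, and negative values were common, found for 12732 of 20477 unigenes. The best expressed GGR unigene, comp107087_c0_seq1, had 34.5 RPKM in CK0, 25.8 and 21.1 in CK5 and CK8, 17.9 and 10.0 in ABA5 and ABA8, and 43.4 and 29.1 in NDGA5 and NDGA8. It was called higher in NDGA5 than in CK5, by 1.68-fold (1.61 to 1.76), and lower in ABA8 than in CK8, with CK8 2.09-fold above (1.97 to 2.25). The other GGR unigenes of the list, comp116839_c0_seq1 and comp118069_c0_seq14, were likewise lowest in ABA8 (2.85 and 2.07 RPKM), but they peaked in CK0 (8.83 and 6.02 RPKM) and not in NDGA5 (4.82 and 4.38 RPKM). The NDGA5 level of comp116839_c0_seq1 was just under its 4.93 RPKM in CK5, the same side as PSY.

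The ratio of PSY to GGR within a library does not depend on the scale of that library. For comp110189_c0_seq5 over comp107087_c0_seq1 it was 0.594 in CK0, 1.90 and 2.72 in CK5 and CK8, 4.37 and 4.67 in ABA5 and ABA8, and 0.556 and 0.966 in NDGA5 and NDGA8. For comp109519_c0_seq8 over the same unigene it was 0.498 in CK0, 1.54 and 2.34 in CK5 and CK8, 3.61 and 3.91 in ABA5 and ABA8, and 0.477 and 0.816 in NDGA5 and NDGA8. The GGR unigene was thus above both PSY unigenes in CK0 and NDGA5 and below both in the water and ABA libraries of days 5 and 8. In NDGA8 it could not be separated from comp110189_c0_seq5 (0.916 to 1.02). The counting interval was 4.15 to 4.59 in ABA5 and 4.42 to 4.94 in ABA8 for comp110189_c0_seq5, so these neighbours overlapped, and the fall of PSY between them was met by a fall of GGR.

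Against GGPS, the ratio of comp110189_c0_seq5 rose from 1.87 in CK0 to 5.15 in CK5, 7.44 in CK8, 11.5 in ABA5 and 14.4 in ABA8, and was 2.87 in NDGA5 and 2.63 in NDGA8. Against PDS, which uses the product of PSY, the same ratio was 1.78 in CK0, 2.41 and 3.27 in CK5 and CK8, 4.50 and 2.96 in ABA5 and ABA8, and 1.72 and 1.45 in NDGA5 and NDGA8. ABA8 was highest against GGR and GGPS, and ABA5 was highest against PDS. If the PSY contigs share reads, each ratio is a scale of these contigs rather than of transcripts. Its order among libraries then holds only if the shared part is alike in every library, which was not tested.

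**Figure D4:**
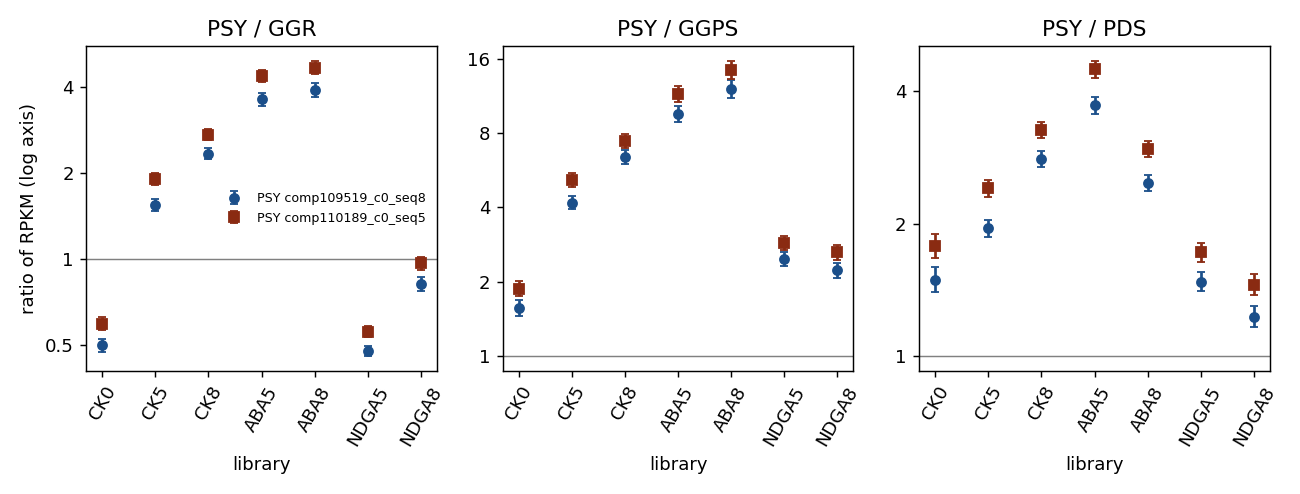
Ratio of RPKM (y axis, log scale) of the best expressed unigene of each PSY component to that of GGR, GGPS and PDS in the 7 libraries (x axis), with exact 95% counting intervals. PSY over GGR is 0.477 to 0.966 in CK0 and the NDGA libraries and 1.54 to 4.67 in the others.

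The remaining PSY unigenes of the list were scarce and ran differently. The contig comp66201_c0_seq1 (1486 nt) had 0.443 RPKM in CK0 (38 reads), 0 in CK5 (0 reads, with an exact interval up to 0.0402 RPKM), 0.734 in CK8 (74 reads), 0.0553 in ABA5 (5 reads), 0.0830 in ABA8 (11 reads), 0.683 in NDGA5 (80 reads) and 0.439 in NDGA8 (35 reads). It was thus lowest where the main PSY unigenes were high, except in CK8, and the libraries low in it were the libraries low in the VDE unigene comp101834_c0_seq10. As plain ratios of RPKM, NDGA5 was 12.3-fold above ABA5 in it (5.07 to 39.0), and CK8 was 8.84-fold above ABA8 (4.67 to 18.5). All its levels lay under the 1 RPKM of the size rule, so none of its differences was called. The short contig comp141666_c0_seq1 (259 nt) had 6 reads in CK0, at 0.401 RPKM, and is listed with no read in the other libraries.

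Over the 7 libraries, 64 of 20477 other unigenes with a mean of at least 5 RPKM had r of 0.95 or more to the sum of both PSY components, and 12732 had r below 0. The 5 highest were comp105662_c0_seq4 (r = 0.98), comp98341_c0_seq2 (0.98), comp102874_c0_seq10 (0.98), comp102059_c2_seq9 (0.98) and comp89417_c0_seq1 (0.97), for which the lists used here give no annotation. The first, comp105662_c0_seq4, had 23.3 RPKM in CK0, 55.1 and 61.2 in CK5 and CK8, 74.9 and 56.1 in ABA5 and ABA8, and 33.3 and 37.0 in NDGA5 and NDGA8, and thus fell less than PSY between ABA5 and ABA8. With 7 points that share libraries, such values describe a course and carry no p.

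Of the study's annotated lists, 137 unigenes passed the same minimum. The 5 most like PSY were listed under the pathway to anthocyanins, as were 72 of the 137 (52.6%), against 25 of the carotenoid list. The 5 come from 3 Trinity components, so they are not 5 separate genes. Phenylalanine ammonia-lyase (PAL, comp109367_c0_seq10), which opens the phenylpropanoid pathway, had r = 0.96 with 9.98 RPKM in CK0, 28.0 and 60.7 in CK5 and CK8, 57.0 and 40.5 in ABA5 and ABA8, and 14.6 and 13.7 in NDGA5 and NDGA8. It peaked in CK8, unlike PSY. The dihydroflavonol reductase (DFR) contigs comp112886_c1_seq3 and comp112886_c4_seq1 followed with r = 0.94 each and a narrow range, the first from 104 RPKM in CK0 to 216 RPKM in ABA5. The contigs comp99227_c1_seq34 and comp99227_c1_seq3, listed under 4-coumarate ligase (4CL), had r = 0.92 each. Both peaked in ABA8, the first at 176 RPKM against 11.7 RPKM in CK0. Their protein match is a predicted 4-coumarate ligase-like protein, so their place in this pathway rests on the list heading.

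**Figure D5:**
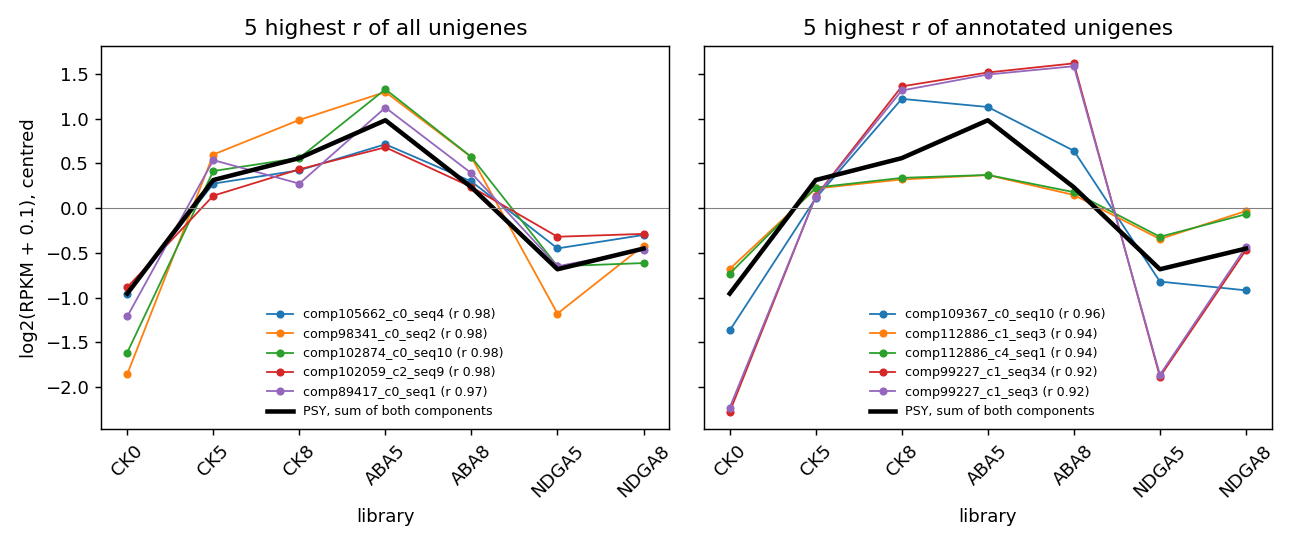
Centred log2(RPKM + 0.1) (y axis) in the 7 libraries (x axis) of the sum of both PSY components (black) and of the 5 unigenes with the highest Pearson r, from all unigenes (left) and from the annotated lists (right). On the left 5 of 5 peak in ABA5 as PSY does. On the right the PAL contig peaks in CK8 and both contigs listed as 4CL in ABA8.

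The degradome, which reads the ends of cleaved transcripts, listed 5207 sites of small RNAs on 3917 unigenes, 859 of them with detected cleavage. There were 0 sites on the PSY components, and most of the 109953 unigenes likewise had none. On the other unigenes of the carotenoid list there were 3 sites, 0 of them with detected cleavage. A table of predicted sites says nothing on cleavage outside it.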

How the data were processed

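The authors deposited RPKM per unigene, made from paired-end reads cleaned by NGS QC toolkit and assembled by Trinity and TGICL. The sources used here do not give tool versions or the read counter. Reads that fit several contigs could raise all of them. RPKM times length gave whole reads within 0.02 reads or 2e-05 of the count for 100% of values. The 24030 cells without a value, none of a PSY unigene, were taken as 0. The deposited degradome table holds a count of reads per predicted site. Deposited p-value and FDR columns, the authors' chi-square tests among 3 libraries, were not used, and small RNA values were not analysed here.

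Ratios used a pseudocount of 0.1 RPKM, the 1.5-fold rule, a minimum of 1 RPKM, and exact Poisson and Clopper-Pearson 95% intervals. Folds of the 12 comparisons include the pseudocount. The intervals, neighbour ratios in the order of libraries, ratios between genes and folds of comp66201_c0_seq1 do not. The design text names other conditions for ABA8 and NDGA5, and the sample labels were followed. Members, lists and tests were chosen with earlier results of these data known. Named unigenes are all PSY unigenes and the best expressed of each other carotenoid enzyme. Also named are the 5 most alike by r among all and among annotated unigenes. The further unigenes of GGR, DXS, DXR, CMS, CRTISO and PDS were chosen after their values were seen. Code was tested on simulated data. Python 3.11.15, numpy 2.4.6, pandas 2.3.3, scipy 1.17.1 and matplotlib 3.10.9 were used.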

Additional observations from a re-analysis of the deposited data

Results flagged for a closer look

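The difference between ABA and water had opposite directions on the 2 days. All 7 PSY unigenes stood above CK5 in ABA5 and below CK8 in ABA8. The day 8 side was close to the background: 0 of 7 were called lower, where 36.1% of all unigenes were. The members' median log2 ratio on day 8 was −0.32, beside −0.28 over all unigenes tested, and the rescaled sum stood at −0.11. For the sum of both components the log2 ratio of day 5 exceeded that of day 8 by 1.00. With 1 library per condition the difference was not tested, and after rescaling 1 of the 7, comp110189_c0_seq9, was slightly above CK8 in ABA8.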

How the results depend on the processing

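The 12 summed log2 ratios moved little with a pseudocount of 0.01 or 1 RPKM. They also moved little with only the longest or only the best expressed unigene of each component. The largest such change was in ABA8 against NDGA8, from 0.69 to 0.73 with the best expressed unigenes. Counts of called PSY unigenes were the same without a filter or with at least 5 RPKM. That outcome was fixed in advance, since the lowest level of any member was 10.8 RPKM (comp110189_c0_seq9 in CK0). Rescaling by the median unigene took the summed log2 ratio to 0.76 (ABA5 to CK5), −0.11 (ABA8 to CK8) and −1.14 (NDGA8 to CK8). It became 1.74 (ABA5 to NDGA5), 1.03 (ABA8 to NDGA8), 0.30 (CK8 to CK5) and 1.63 (CK8 to CK0). Within an agent it was −0.57 (ABA8 to ABA5) and 0.14 (NDGA8 to NDGA5). The remaining ratios were −0.98 (NDGA5 to CK5), 1.33 (CK5 to CK0) and 0.46 (ABA5 to CK8), and no sign turned. Rescaling left 1 of 7 unigenes called in ABA8 against ABA5. In ABA8 against CK8 it gave 5 higher and 17 lower on the carotenoid list (25.6% and 28.2% of all unigenes). It raised the PSY unigenes called higher from 5 to 7 in ABA5 against CK5 (18.2% of all unigenes after rescaling). In ABA8 against NDGA8 it raised them from 6 to 7. The rescaled share of all unigenes is not given for ABA8 against ABA5 or against NDGA8. At 2-fold, 0 of 7 PSY unigenes were called in ABA5 against CK5, in ABA8 against NDGA8 and in ABA8 against ABA5. At this fold 3 were called in NDGA5 against CK5 and 5 in NDGA8 against CK8. All 7 were still called in ABA5 against NDGA5 and in CK5 and CK8 against CK0. Chi-square tests of reads between single libraries, which say nothing of conditions, called 7 in ABA8 against CK8, in NDGA8 against NDGA5 and in ABA5 against CK8, and 6 in CK8 against CK5. The share of all unigenes called at 2-fold or by chi-square is not given here. These counts therefore have no background beside them and are not a result about PSY. Of the 5 unigenes most like PSY, 2 were among the 5 of smallest RMS deviation and 3 among the 5 of highest r with a mean of at least 1 RPKM. No paired analysis was possible because each condition has 1 library. Depth does not limit the PSY values, but comp66201_c0_seq1 rests on 0 to 80 reads per library.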
